A study of Mus musculus with 3 samples.

Results

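A set of 30 genes of the endoplasmic reticulum (ER) folding machinery and the unfolded protein response (UPR) was read on the expression arrays of 3 mouse cell lines. The members were chosen by symbol, and a probe belonged to a member when its RefSeq accession mapped to that symbol. The array held all 30 of them among 22911 named genes, with 50 of 56605 probes. By role they were 9 chaperones and co-chaperones, 2 lectin chaperones, 4 disulfide isomerases, 7 genes of ER-associated degradation (ERAD), 4 genes of translocation and export, and 4 genes of UPR signalling.

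Colon26 is a colon adenocarcinoma line of female BALB/c mice, and LuM1 and NM11 are its high-metastatic and low-metastatic sublines. The labels name no agent or engineered allele for any line, and cells of all 3 lines were kept in the same serum-containing medium and were cultured for 3 days before 0.1 µg of total RNA per line was labelled with Cy3. The study asked how expression in LuM1 cells differed from that in NM11 and parental Colon26 cells. Each line was read on 1 array, so the differences below have no replicate check, no test was possible, and precision is limited to what 1 array per line gives.

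Proteins bound for secretion or for membranes enter the ER, where chaperones hold them, lectin chaperones read their sugars, and disulfide isomerases set their cysteine bonds. Chains that fail to fold are pulled back to the cytosol and degraded, which is ERAD. When unfolded protein builds up, the sensors encoded by *Ern1*, *Atf6* and *Eif2ak3* slow translation and, through the transcription factors ATF6 and XBP1, switch on chaperone and ERAD genes. These factors act at short promoter sequences known as ER stress elements.

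The promoters of the members were read for such elements. The members were chosen as genes of ER folding and the UPR, whose factors act at these elements. Their share of elements is thus not independent of that choice and is given as a description. The windows were RefSeq promoters of the assembly GRCm38.p6, from 250 bases before to 50 bases after the annotated start. The ER stress element (ERSE) is CCAAT, 9 bases of any kind and then CCACG, its second form (ERSE-II) is ATTGG, 1 base and then CCACG, and the UPR element (UPRE) is TGACGTGG. Both strands were searched for exact matches alone, so sequences that differ from an element by 1 base were not counted. The letters CCACG, read on the other strand, also lie inside the UPRE, and no member held more than 1 kind of element. The 250 bases before the start of *Hspa5* (chr2:34771840-34772089, plus strand) are shown in full, since *Hspa5* is the classical UPR target. Stretches around the element are shown for *Hsp90b1*, which held the ERSE in 2 places and differed least between the lines, for *Creld2* and *Canx*, whose ratios of LuM1 over Colon26 were the highest among members with an element, and for *Herpud1*, whose ratio was the lowest. The stretch of *Sec24d* holds the UPRE. Those of *Hsp90b1* lie at chr10:86705613-86705681 and chr10:86705508-86705576 (minus strand), that of *Creld2* at chr15:88819495-88819563 (plus strand) and that of *Canx* at chr11:50325775-50325843 (minus strand). That of *Herpud1* lies at chr8:94386352-94386412 and that of *Sec24d* at chr3:123267445-123267495 (both plus strand). Each is written 5′ to 3′ on the strand of the gene, and capitals mark the fixed letters of the element, which appear as their reverse complement where the ERSE lies in reverse orientation.
Hspa5: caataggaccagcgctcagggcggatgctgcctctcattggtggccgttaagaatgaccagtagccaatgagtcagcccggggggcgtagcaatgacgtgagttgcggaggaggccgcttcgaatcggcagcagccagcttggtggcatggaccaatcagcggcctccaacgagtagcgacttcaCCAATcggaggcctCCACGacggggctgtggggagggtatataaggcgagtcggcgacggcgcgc
Hsp90b1, forward ERSE: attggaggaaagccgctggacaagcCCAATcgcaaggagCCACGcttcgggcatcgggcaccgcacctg
Hsp90b1, reverse ERSE: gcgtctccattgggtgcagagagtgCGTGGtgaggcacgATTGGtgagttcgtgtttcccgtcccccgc
Creld2, reverse ERSE: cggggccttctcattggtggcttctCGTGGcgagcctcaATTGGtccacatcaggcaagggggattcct
Canx, forward ERSE: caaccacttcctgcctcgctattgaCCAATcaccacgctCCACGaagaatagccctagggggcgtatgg
Herpud1, forward ERSE-II: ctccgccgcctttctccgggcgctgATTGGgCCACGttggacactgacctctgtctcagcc
Sec24d, forward UPRE: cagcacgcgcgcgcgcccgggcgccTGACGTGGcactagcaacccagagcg

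A window was given for 25 of the 30 members, and *Hyou1*, *Manf*, *Derl1*, *Atf6* and *Sec61a1* had none. The ERSE stood in 9 of the 25 members (36.0%), namely *Hspa5*, *Hsp90b1*, *Dnajc3*, *Calr*, *Canx*, *Pdia6*, *Creld2*, *Syvn1* and *Derl3*. Over the whole table it stood in 39 of 32851 windows (0.119%), which belonged to 37 of 27025 genes. The ERSE-II stood in *Herpud1* and *Dnajb11* (8.0% of the members with a window) and in 12 windows of the table (0.0365%). The UPRE stood in *Sec24d* (4.0%) and in 222 windows (0.676%). In *Hspa5* the ERSE ran from base -65 to base -47 relative to the start, and that of *Syvn1* from -44 to -26. The element of *Dnajb11* lay after the start, from base 7 to base 17. These matches describe letters in a window and not sites shown to be bound.

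**Figure D1:**
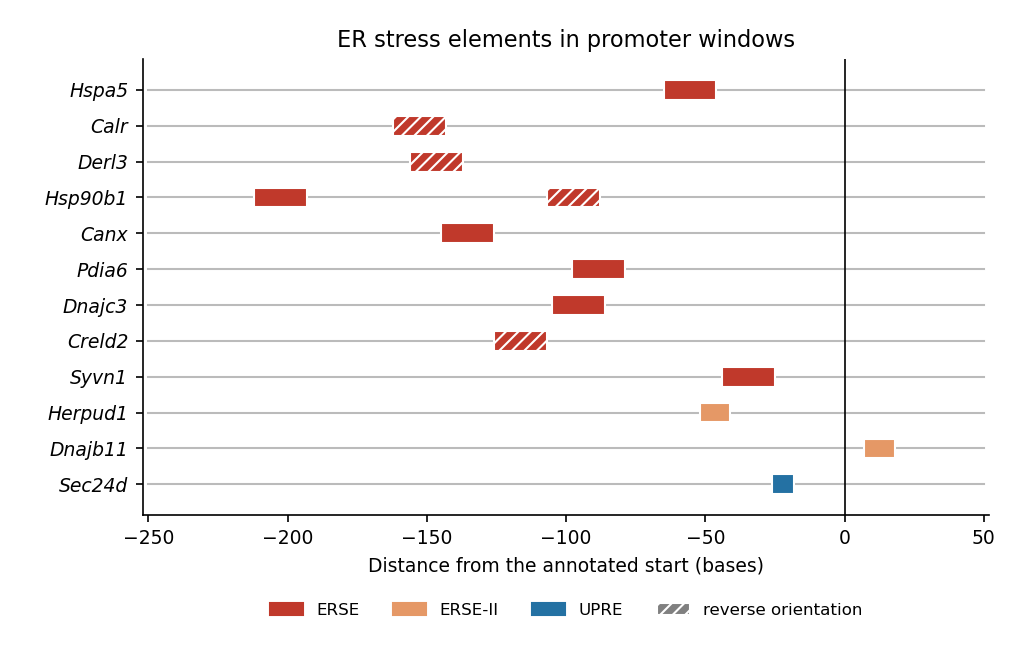
ER stress elements in the promoter windows of 12 members, by distance in bases from the annotated start (vertical line). Boxes show the ERSE, ERSE-II and UPRE, hatched where in reverse orientation. All but the ERSE-II of Dnajb11 lie before the start, and Hsp90b1 holds the ERSE in 2 places.

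The level of a gene is given as its background-subtracted Cy3 signal, scaled so that the 75th percentile of each array became 585.1, and the error after ± is that of the scanner software (10.0% of the signal plus a small constant). A probe was taken as measured when the software found it well above background, which held for 49.9% to 53.8% of probes per array. Where a gene had several probes, its brightest one is given. Ratios are on the log2 scale, with a scanner error of 0.20 or 0.21 for the members, and a gene was counted as apart when it was at least 2-fold higher or lower. Signals of different probes are not compared with each other. No array had saturated spots, and spots of 1 probe repeated on an array varied by a median SD of 0.035 to 0.040 (log2).

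Colon epithelial markers were in part missing from all 3 lines. *Cdh1*, *Krt18*, *Krt19* and *Vil1*, 4 of the 8 genes of that list, were not well above background on any array, and *Epcam* was measured in LuM1 cells alone. *Krt20* (651 in Colon26, 54.5 in LuM1 and 157 in NM11 cells), *Cdx2* (443, 232 and 167) and *Krt8* (28.9, 108 and 37.1) were measured in all lines, and the summed signal of the list was 1154 in Colon26, 441 in LuM1 and 387 in NM11 cells. Of 7 fibroblast markers 6 were measured on all arrays, with summed signals of 168463, 115965 and 204178, but they differed in opposite directions. *Col1a2* had 59896 ± 5990 in Colon26, 49.6 ± 6.89 in LuM1 and 85275 ± 8527 in NM11 cells, *Pdgfra* had 218 ± 22.6, 3965 ± 397 and 1286 ± 129, and *Dcn* was not well above background in Colon26 cells. Of 6 leukocyte markers 3 were measured on all arrays, *Ptprc* and *Adgre1* on none, and the summed signals were 5902, 12884 and 5250. *Cd68* made most of that difference, with 172 ± 18.1 in Colon26, 5251 ± 525 in LuM1 and 299 ± 30.2 in NM11 cells. Among endothelial markers *Cdh5*, *Kdr* and *Tek* were measured on no array, with summed signals of the list of 68.5, 66 and 93.9. Of the plasma cell markers, *Jchain* and *Mzb1* were measured on no array, and the summed signals were 1714, 2159 and 1595. *Sdc1* made most of these sums (1693, 2034 and 1557). *Prdm1* was measured in LuM1 (103 ± 11.2) and NM11 cells (29.2 ± 4.99) but not in Colon26 cells. The part of these differences in the results was not tested. In these RNA samples, fewer cells of a kind and less RNA per cell cannot be told apart.

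Of the 30 members, 29 were measured in all 3 lines. *Derl3*, a factor of the retrotranslocation channel, was not well above background on any array (signals of 5.72, 6 and 4.08), so it has no ratio although its promoter window held the ERSE. Most of the measured genes differed by less than 2-fold between the lines. Within the scanner error lay 12 of the 29 in LuM1 over Colon26, 8 in NM11 over Colon26 and 8 in LuM1 over NM11. The range over the 3 lines had a median of 0.55 (log2) over the 29 genes and of 0.66 over 12249 genes measured on all arrays. It reached 2-fold in 3 of the members (10.3%) and in 27.1% of all genes.

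**Figure D2:**
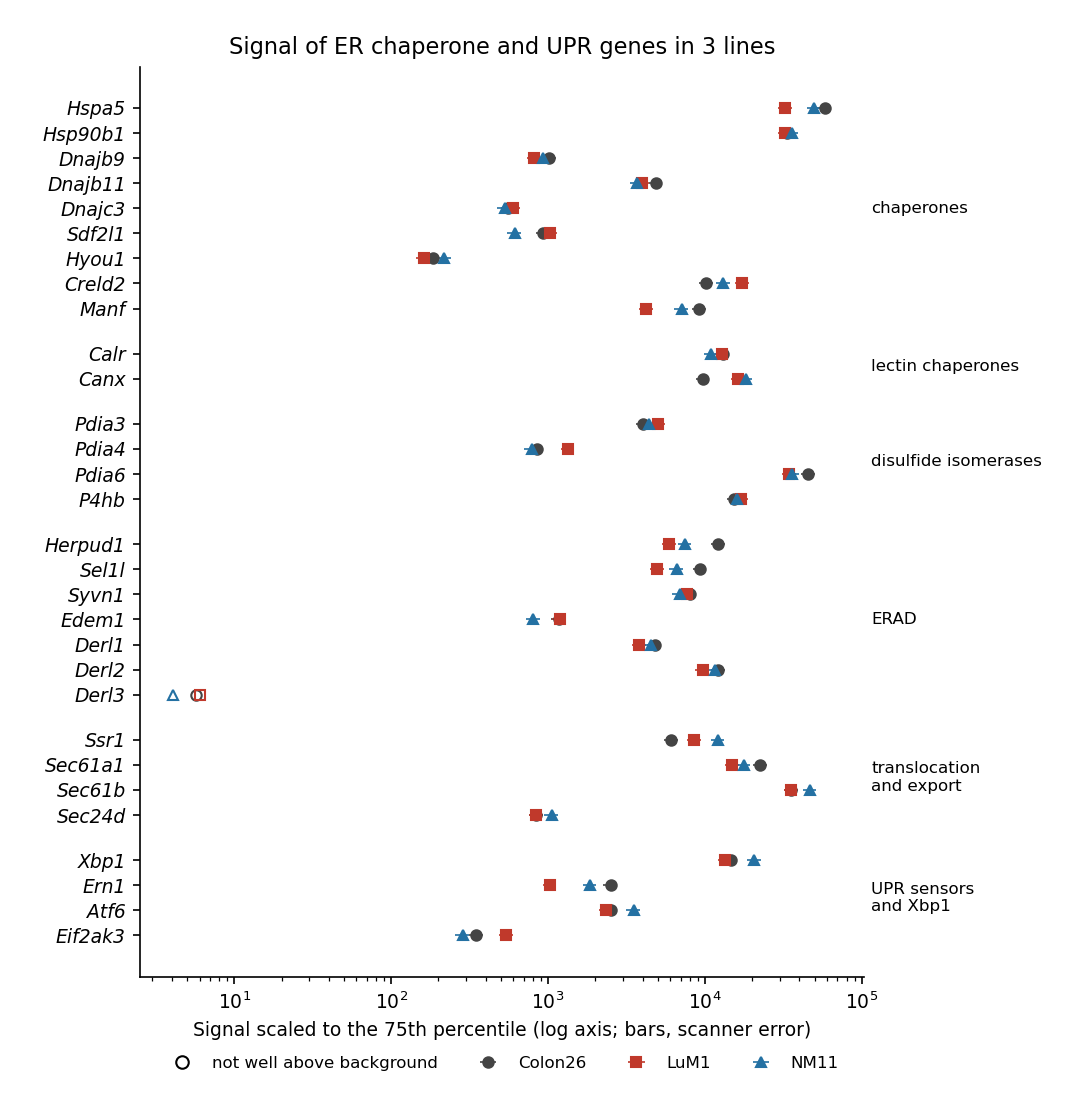
Scaled signal (log axis) of the 30 ER chaperone and UPR genes in Colon26 (circles), LuM1 (squares) and NM11 cells (triangles), 1 array each, with the scanner error as bars and open symbols where not well above background. The 3 symbols of most genes lie within 2-fold of each other, Ern1, Manf and Herpud1 span over 2-fold, and Derl3 is the 1 gene not measured.

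Against Colon26 cells, LuM1 cells had *Ern1*, *Manf* and *Herpud1* lower by at least 2-fold and no member higher by as much. That is 10.3% lower and 0.0% higher of 29 genes, against 11.8% lower and 13.1% higher over 14182 named genes. All 29 members were measured on both arrays, but only 12397 of the named genes were. The others were measured on 1 array and entered as bounds, here and in the comparisons below. The shares of members and of all genes are therefore not fully alike. The split of the members depended on the scaling. It was 2 higher (*Canx* and *Creld2*) and 1 lower (*Ern1*) under quantile normalization, and 4 higher and 0 lower with the submitters' processed values. The median of all genes was -0.05 and 0.32 under these settings, and their shares of all genes 2-fold apart are not given. At 1.5-fold, 4 members were higher (13.8%, *Canx*, *Creld2*, *Eif2ak3* and *Pdia4*) and 6 were lower (20.7%, the former 3 with *Hspa5*, *Sec61a1* and *Sel1l*), against 20.6% and 24.9% of all genes. The median log2 ratio was -0.05 over the members and -0.13 over all genes measured on both arrays. The quartiles were -0.33 and 0.15 for the members and -0.55 and 0.34 for all genes. Beyond the scanner error, 6 members were higher, 11 were lower and 12 lay within it, a count not given for all genes. Ratios above 0 made up 41.4% of the members and 41.7% of all genes measured on both arrays.

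In NM11 cells against Colon26 cells, no member was 2-fold apart in either direction, against 8.34% higher and 7.89% lower over 13832 named genes. At 1.5-fold *Canx* and *Ssr1* were higher and *Herpud1* and *Sdf2l1* were lower (6.9% in each direction, against 15.8% higher and 17.1% lower). The median was -0.11 over the members and -0.02 over all genes. In LuM1 cells against NM11 cells, again no member was 2-fold apart, against 11.1% higher and 8.5% lower over 14411 named genes. *Eif2ak3*, *Pdia4* and *Sdf2l1* passed 2-fold, all higher, with E1A spike-in scaling or the submitters' values, which moved the median of all genes up by 0.30 and 0.41. At 1.5-fold *Eif2ak3*, *Pdia4* and *Sdf2l1* were higher (10.3%, against 19.1%) and *Ern1*, *Hspa5*, *Manf* and *Xbp1* were lower (13.8%, against 20.5%). The median was -0.19 over the members and -0.11 over all genes. The comparisons share arrays in pairs, so they are not independent of each other.

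**Figure D3:**
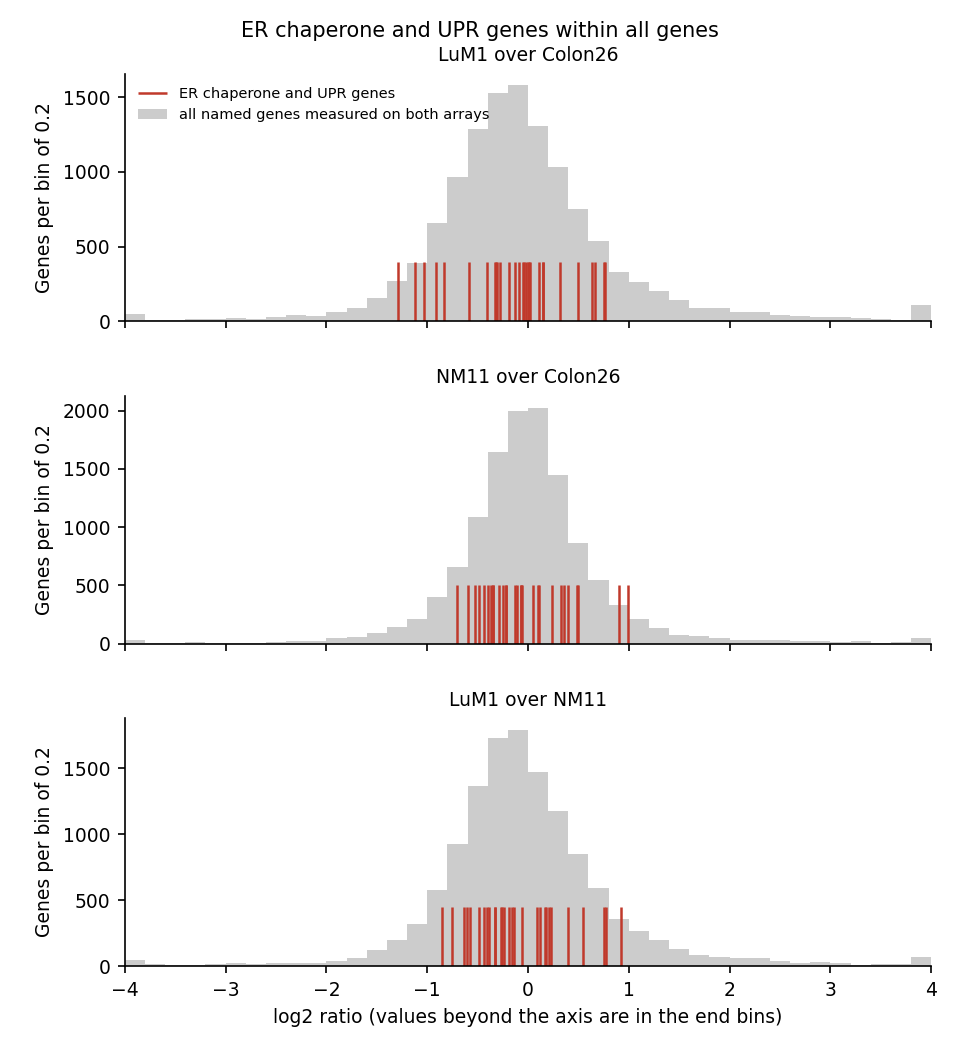
Number of named genes per bin of 0.2 (log2 ratio) in the 3 comparisons, with the 29 measured ER chaperone and UPR genes as red lines and genes beyond the axis in the end bins. The members lie from -1.29 to 0.76 in LuM1 over Colon26, from -0.70 to 0.99 in NM11 over Colon26 and from -0.85 to 0.92 in LuM1 over NM11, within the body of the distribution.

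The luminal chaperones differed among themselves. *Hspa5* encodes BiP, the main chaperone of the ER, which also keeps the UPR sensors inactive. Its signal was 57950 ± 5795 in Colon26, 32576 ± 3258 in LuM1 and 49780 ± 4978 in NM11 cells. LuM1 cells had the lowest level, 1.78-fold below Colon26 cells (log2 ratio of -0.83), and the ratio of NM11 over Colon26 was -0.22. The other probes of *Hspa5* gave -0.91 and -0.93 for LuM1 over Colon26. That ratio was -0.38 with the submitters' processed values. The ratio of LuM1 over NM11 (-0.61) shrank to -0.02 when scaled to *Hprt*. *Hsp90b1* encodes the ER member of the chaperone family of cytosolic Hsp90. Its signal was 33299 in Colon26, 32439 in LuM1 and 35726 in NM11 cells, the smallest range of all members (0.14). Its promoter window, printed above, held the ERSE as that of *Hspa5* did.

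*Manf* encodes a small secreted protein that binds BiP. Its signal was 9191 ± 919 in Colon26, 4228 ± 423 in LuM1 and 7100 ± 710 in NM11 cells. The level in LuM1 cells was 2.17-fold below that of Colon26 cells (-1.12), with NM11 cells in between (-0.37 over Colon26), and its second probe gave -1.16 for LuM1 over Colon26. *Creld2*, which encodes a secreted ER stress protein with disulfide isomerase activity, ran the other way. Its signal was 10179 ± 1018 in Colon26, 17244 ± 1724 in LuM1 and 13055 ± 1306 in NM11 cells. LuM1 cells were 1.69-fold above Colon26 cells (0.76), next to *Canx* at the top of that comparison, and *Creld2* and *Ern1* were 2.05 apart on the log2 scale, or 4.13-fold.

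The co-chaperone genes *Dnajb9*, *Dnajc3* and *Dnajb11*, whose proteins deliver clients to BiP, were not 1.5-fold apart in any comparison. *Dnajb9* had signals of 1014, 817 and 929 in Colon26, LuM1 and NM11 cells, and *Dnajc3* had 556, 600 and 529. *Dnajb11* had 4857, 3990 and 3674, so that it was lower in both sublines (-0.28 and -0.40), although the former ratio was 0.16 with the submitters' processed values, its second probe gave -0.01 and -0.30, and its last probe, of another accession, was not well above background on any array. *Sdf2l1*, a partner of *Dnajb11* in the BiP cycle, had 929 ± 93.1 in Colon26, 1030 ± 103 in LuM1 and 612 ± 61.3 in NM11 cells. NM11 cells were the low ones here, with -0.60 over Colon26 and 0.75 for LuM1 over NM11. *Hyou1*, an exchange factor for BiP, had 184, 161 and 218, with ratios of -0.19 and 0.24 over Colon26 that turned sign under some scalings. Over the 9 chaperones the median log2 ratio was -0.19 for LuM1 over Colon26, -0.13 for NM11 over Colon26 and -0.14 for LuM1 over NM11.

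**Figure D4:**
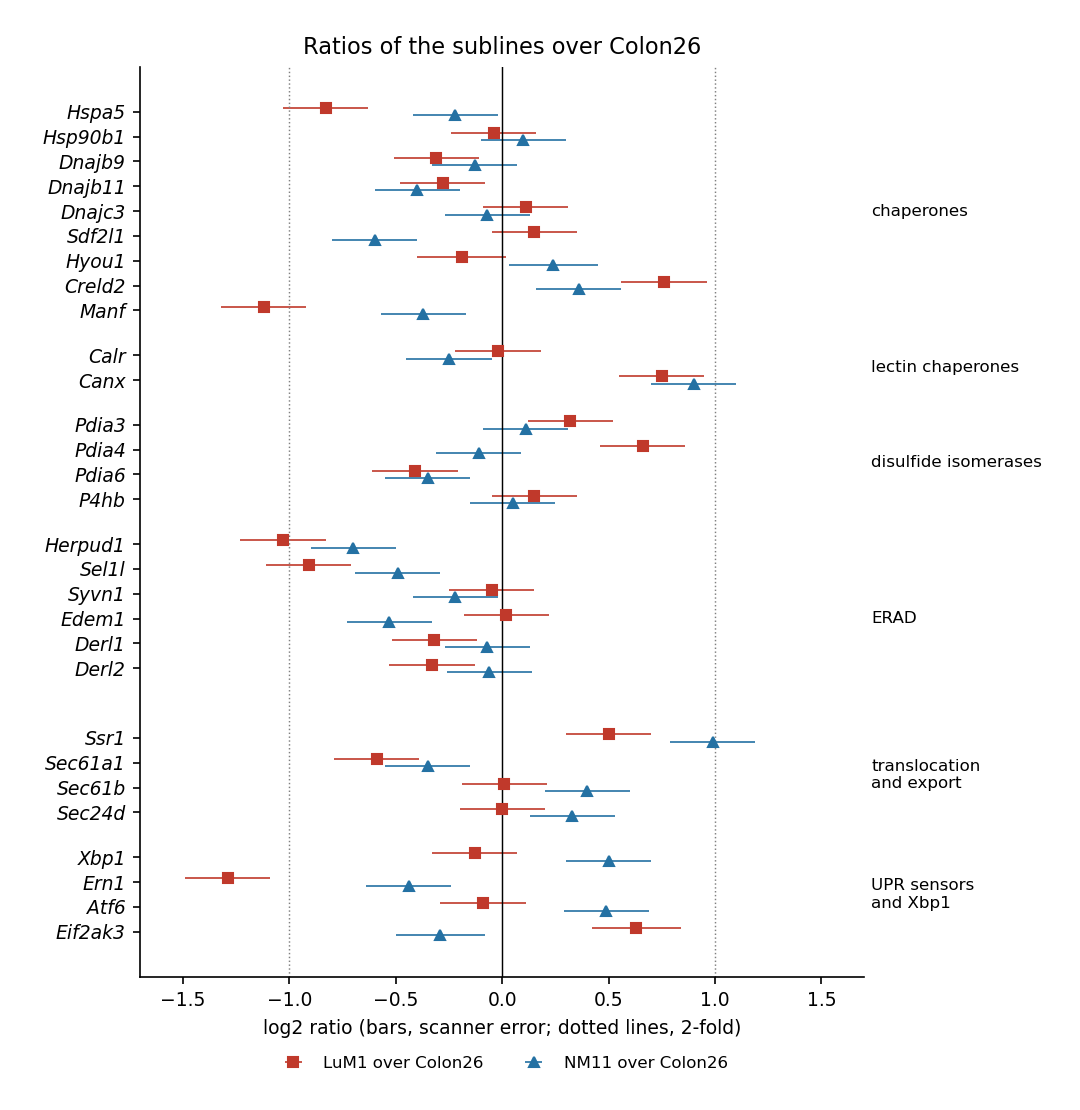
Log2 ratio of LuM1 over Colon26 (squares) and NM11 over Colon26 (triangles) for the 29 measured members, with the scanner error as bars and dotted lines at 2-fold. Both ratios use the same Colon26 array. Ern1, Manf and Herpud1 lie past the lower line in LuM1 cells, Canx and Ssr1 lie to the right in both sublines, and Eif2ak3 lies on opposite sides of 0.

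Calnexin and calreticulin share the task of holding glycoproteins by their trimmed sugars, the former in the membrane and the latter in the lumen. *Canx* (calnexin) had signals of 9703 ± 970 in Colon26, 16306 ± 1631 in LuM1 and 18161 ± 1816 in NM11 cells. Both sublines were above the parental line, 1.68-fold in LuM1 (0.75) and 1.87-fold in NM11 cells (0.90), and differed from each other by less than the scanner error (-0.16). The second *Canx* probe had 3481 in Colon26, 7010 in LuM1 and 7674 in NM11 cells, which is 2.01-fold and 2.2-fold higher. *Calr* (calreticulin) had 12982, 12808 and 10946, with ratios over Colon26 of -0.02 and -0.25. Both windows held the ERSE.

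Among the disulfide isomerases, *Pdia4* had signals of 847 ± 85 in Colon26, 1335 ± 134 in LuM1 and 785 ± 78.6 in NM11 cells. LuM1 cells stood above both other lines, with 0.66 over Colon26 and 0.77 over NM11. *Pdia6* had 45726, 34520 and 35913 in Colon26, LuM1 and NM11 cells, so that both sublines were lower (-0.41 and -0.35), except that the first ratio was 0.04 with the submitters' processed values. *Pdia3*, which works with calnexin and calreticulin, had 4057, 5058 and 4378. *P4hb*, the founding isomerase and a subunit of collagen prolyl hydroxylase, had 15435, 17093 and 16019, within the scanner error in all 3 comparisons.

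All 6 measured ERAD members had a ratio of NM11 over Colon26 below 0 (median of -0.36, lowest -0.70, highest -0.06), where 48.0% of all genes lay above 0. Each kept this sign under the alternatives tried, although the second probe of *Derl2* gave 0.01. *Derl1* and *Derl2* lay within the scanner error there. In LuM1 over Colon26, 5 of the 6 were below 0 (median of -0.33), where 41.7% of all genes lay above 0, and of these *Syvn1*, *Derl1* and *Derl2* turned sign under other scalings. The 24 further ERAD genes of the wider list had medians of 0.07 for NM11 over Colon26 and -0.15 for LuM1 over Colon26. *Herpud1* encodes a membrane protein that gathers the ERAD complex and is itself a strong UPR target. Its signal was 12121 ± 1212 in Colon26, 5942 ± 594 in LuM1 and 7462 ± 746 in NM11 cells. It was 2.04-fold lower in LuM1 (-1.03) and 1.62-fold lower in NM11 cells (-0.70) than in Colon26 cells, and the second probe gave -1.13 and -0.85.

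*Sel1l*, the adaptor of the ubiquitin ligase encoded by *Syvn1*, had 9293 ± 929 in Colon26, 4957 ± 496 in LuM1 and 6604 ± 660 in NM11 cells. Its probes disagreed for LuM1 over Colon26, where the brighter probe gave -0.91 and the dimmer one -0.16, and for LuM1 over NM11 (-0.41 and 0.25). *Syvn1* had 8030, 7738 and 6891. *Edem1*, a lectin that hands glycoproteins to ERAD, had 1167 ± 117 in Colon26, 1184 ± 118 in LuM1 and 806 ± 80.7 in NM11 cells. Its level was lower in NM11 cells (-0.53 over Colon26) and differed by less than the scanner error between the others (0.02). The channel factors *Derl1* (4770, 3815 and 4559) and *Derl2* (12177, 9675 and 11663) were lowest in LuM1 cells, at -0.32 and -0.33 over Colon26.

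Genes of translocation and export had no common direction against Colon26 cells. *Ssr1* encodes the alpha subunit of the translocon-associated protein complex. Its signal was 6086 ± 609 in Colon26, 8580 ± 858 in LuM1 and 12069 ± 1207 in NM11 cells, which is 1.98-fold above Colon26 cells in NM11 (0.99) and 1.41-fold above them in LuM1 cells (0.50). Its second probe gave 0.95 and 0.27. *Sec61a1*, the channel-forming subunit of the translocon, had 22462 ± 2246, 14921 ± 1492 and 17678 ± 1768 in Colon26, LuM1 and NM11 cells, lower in both sublines (-0.59 and -0.35), and its other probes were below 0 as well. *Sec61b*, another subunit of the same channel, had 35321, 35597 and 46732, so it was higher in NM11 cells (0.40) but not in LuM1 cells (0.01), and the NM11 ratio turned to -0.08 when scaled to *Hprt*. *Sec24d*, which selects cargo for COPII vesicles and whose window held the UPRE, had 839, 839 and 1053. All 4 genes were lower in LuM1 than in NM11 cells (median of -0.36), a direction that turned for each of them when the arrays were scaled to *Hprt*. The submitters' values move the ratios of this comparison up by 0.41, which turned *Sec61a1* (-0.24), *Sec61b* (-0.39) and *Sec24d* (-0.33) as well. Scaling to the E1A controls, a move of 0.30, turned *Sec61a1*.

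The stress sensors differed in direction. *Ern1* encodes IRE1 alpha, the kinase and nuclease that splices *Xbp1* mRNA. Its signal was 2503 ± 250 in Colon26, 1026 ± 103 in LuM1 and 1845 ± 185 in NM11 cells. In LuM1 cells it stood 2.44-fold below Colon26 cells (-1.29), the lowest ratio of any member, and 1.8-fold below NM11 cells (-0.85), from a single probe. *Eif2ak3* encodes PERK, the kinase that slows translation. Its signal was 348 ± 35.3 in Colon26, 540 ± 54.2 in LuM1 and 285 ± 28.8 in NM11 cells, so that LuM1 cells stood 1.55-fold above Colon26 cells (0.63) and 1.9-fold above NM11 cells (0.92). LuM1 cells were thus lowest for *Ern1* and highest for *Eif2ak3*.

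*Atf6* encodes the sensor that is cut in the Golgi to free a transcription factor. It had 2505 ± 251 in Colon26, 2350 ± 235 in LuM1 and 3508 ± 351 in NM11 cells. *Xbp1* had 14661 ± 1466, 13406 ± 1341 and 20684 ± 2068 in the same order. Both were highest in NM11 cells, with ratios over Colon26 of 0.49 for *Atf6* and 0.50 for *Xbp1*, which were -0.00 and 0.01 when scaled to *Hprt*. The 3 probes of *Xbp1* gave 0.48 to 0.65. In LuM1 cells both differed from Colon26 by less than the scanner error (-0.09 and -0.13). The probes of *Xbp1* were not separated here by spliced and unspliced mRNA, so splicing by IRE1 alpha was not measured.

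A wider set of 157 other genes of the same machinery was counted in the same way. In LuM1 over Colon26, 9 of 151 tested genes were at least 2-fold higher (5.96%) and 11 were lower (7.28%), against 13.1% and 11.8% of all genes. In NM11 over Colon26, 3 of 151 were higher (1.99%) and 6 were lower (3.97%), against 8.34% and 7.89%. In LuM1 over NM11, 3 of 150 were higher (2.0%) and 6 were lower (4.0%), against 11.1% and 8.5%. Of 33 further folding enzymes tested, 4 were higher and 1 was lower in LuM1 than in Colon26 cells. *Fkbp14*, a prolyl isomerase that acts on collagen, had 344 ± 34.8 in Colon26, 1735 ± 174 in LuM1 and 272 ± 27.5 in NM11 cells, with 2.33 for LuM1 over Colon26. LuM1 cells were also the high ones for *Selenom* (1.40) and for the dim *Creld1* (1.90, but 0.82 under normexp). *Pdia5*, an isomerase, had 1258 ± 126 in Colon26, 409 ± 41.1 in LuM1 and 447 ± 44.9 in NM11 cells, lower in both sublines (-1.62 and -1.49).

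Of 13 genes of glycan processing tested, *Edem3* (1.08 in LuM1 over Colon26, but 0.80 under normexp) was the 1 that was 2-fold apart, and *Mogs*, the first glucosidase, was lower in both sublines (-0.83 and -0.90). *Ngly1* (-0.87 for LuM1 over NM11) and *Mcfd2* (-0.67 in LuM1 and -0.87 in NM11 over Colon26) did not reach 2-fold in any comparison. Of 24 further ERAD genes, *Ube2g2*, a ubiquitin-conjugating enzyme, was lower in LuM1 than in Colon26 cells (5496 ± 550 in Colon26, 1921 ± 192 in LuM1 and 6771 ± 677 in NM11 cells, -1.52), and *Ube2j1* was lower than in NM11 cells (-1.07). *Ubl4a* stood at -0.89 in LuM1 over Colon26. Of 32 genes of translocation and glycosylation, *Tram2* was higher (1.43) and *Srprb* lower (-1.03) in LuM1 than in Colon26 cells, *Sec62* was higher in NM11 cells (1.01), and *Ssr4*, at the edge of 2-fold, was not counted (12150 ± 1215 in LuM1 against 24218 ± 2422 in Colon26 cells). Of 22 COPII genes, *Kdelr3*, a receptor that returns ER residents, was lower in LuM1 than in Colon26 cells (-1.04). The calls of *Ube2j1*, *Srprb*, *Sec62* and *Kdelr3* lay near 2-fold and were each lost under other scalings. *Mia2*, *Sec16b* and *Preb* were not 2-fold apart, at -0.95, -0.73 and -0.41 in that comparison.

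The remaining list, UPR signalling outside the 30 members, held more genes that were lower in LuM1 cells. In LuM1 over Colon26, 7 of 27 tested genes were at least 2-fold lower (25.9%, against 11.8% of all genes) and 3 were higher (11.1%, against 13.1%). The median was -0.57, against -0.13 for all genes. With the submitters' values 3 were lower (*Atf3*, *Ppp1r15a* and *Stc2*) and 3 higher, with a median of -0.13 against 0.32 for all genes, and under normexp background correction 7 were lower and 0 higher. In LuM1 over NM11, 4 of 26 were lower (15.4%, against 8.5%) and 0 were higher (against 11.1%), with a median of -0.36. The same 4 genes (*Atf3*, *Creb3l1*, *Ddit3* and *Ppp1r15a*) were lower under each alternative, while 2 to 5 genes became higher without scaling or when scaled to E1A, to *Hprt* or by the submitters. The median of all genes moved up by 0.18, 0.30, 0.59 and 0.41 under these settings, in that order. In NM11 over Colon26, 2 of 27 were higher and 2 were lower (7.41% each, against 8.34% and 7.89%), with a median of 0.03. When scaled to *Hprt*, which moved the median of all genes by -0.49, 7 were lower. The 7 lower genes were *Atf3*, *Chac1*, *Ddit3*, *Eif2s1*, *Ppp1r15a*, *Stc2* and *Trib3*, of which *Atf3*, *Chac1*, *Ddit3*, *Ppp1r15a* and *Trib3* are known targets of the PERK and ATF4 branch. The lists were drawn up with earlier results of these data known, so this share is a description.

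*Ddit3* encodes CHOP, a transcription factor induced under lasting stress. Its signal was 5352 ± 535 in Colon26, 2062 ± 206 in LuM1 and 7455 ± 745 in NM11 cells, with -1.38 for LuM1 over Colon26. *Atf3*, a factor of the same branch, had 1595 ± 160, 314 ± 31.7 and 1787 ± 179, so LuM1 cells stood 5.08-fold below Colon26 cells. *Ppp1r15a*, which restores translation after stress, had 26791 ± 2679, 6912 ± 691 and 27444 ± 2744, or 3.88-fold lower. For all of these LuM1 cells were low, while NM11 and Colon26 cells differed by 0.48, 0.16 and 0.03. *Trib3*, an inhibitor induced by CHOP, had 67913 ± 6791, 25364 ± 2536 and 35670 ± 3567, lower in both sublines (-1.42 and -0.93). *Atf4* itself differed less, with 139792 ± 13979 in Colon26, 105288 ± 10529 in LuM1 and 151493 ± 15149 in NM11 cells (-0.41 and 0.12). Neither sign held, as the LuM1 ratio was 0.10 under quantile normalization and 0.04 with the submitters' values. The NM11 ratio was -0.37 when scaled to *Hprt*. *Eif2ak3*, whose kinase acts upstream of these genes, was higher in LuM1 cells, as given above. *Stc2* was measured in no line but Colon26 (649), where it was at least 32.2-fold higher than in LuM1 and at least 33.1-fold higher than in NM11 cells.

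In the ATF6 branch, *Atf6b*, a relative of *Atf6*, had 688 ± 69 in Colon26, 510 ± 51.2 in LuM1 and 342 ± 34.5 in NM11 cells, lower in NM11 than in Colon26 cells (-1.01, but -0.85 under normexp) where *Atf6* was higher. The proteases that cut ATF6 in the Golgi are encoded by *Mbtps1* and *Mbtps2*. *Mbtps1* stood at -0.15 in LuM1 and -0.62 in NM11 over Colon26, and *Mbtps2* at -0.86 and -0.54. *Creb3l1*, a related membrane-bound factor, had 157 ± 16.8 in Colon26, 116 ± 12.5 in LuM1 and 568 ± 56.9 in NM11 cells, with NM11 cells 3.61-fold above Colon26 cells (1.85). Of the other genes counted as higher in LuM1 than in Colon26 cells, *Creb3l2* stood at 1.08, *Creb3l4* at 1.22 and *Crebrf* at 1.01. None of these was counted as higher under normexp, and *Crebrf* was not under quantile normalization. *Creb3l4* was also higher in NM11 than in Colon26 cells (1.19). *Hprt*, the internal control of the study, had 11101 ± 1110 in Colon26, 10351 ± 1035 in LuM1 and 15573 ± 1557 in NM11 cells, so scaling to it lowers the NM11 values of every gene.

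**Figure D5:**
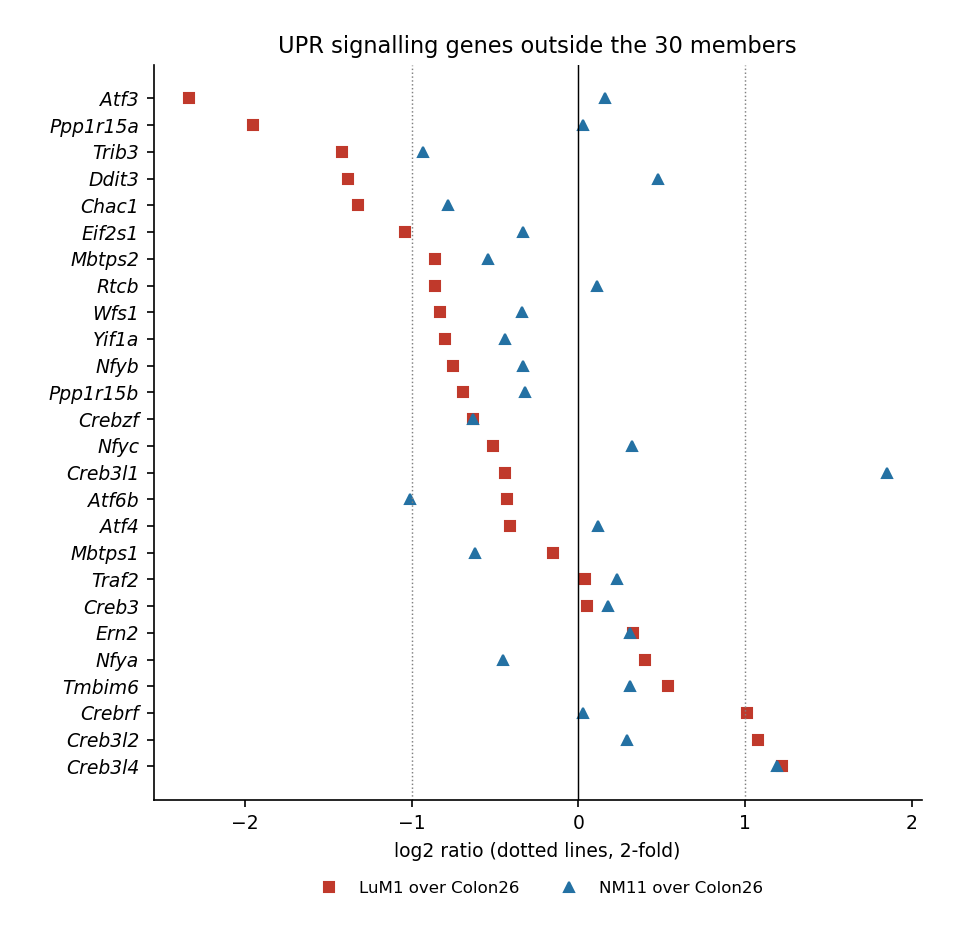
Log2 ratio of LuM1 over Colon26 (squares) and NM11 over Colon26 (triangles), from the same Colon26 array, for the 26 UPR signalling genes outside the members that were measured on all 3 arrays, ordered by the first ratio. Dotted lines mark 2-fold. Atf3, Ppp1r15a and Ddit3 lie far left in LuM1 cells alone, and Creb3l1 lies far right in NM11 cells.

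Members with an ERSE or ERSE-II in the promoter window did not lie on one side. Of the 10 that were measured, 3 had a ratio of LuM1 over Colon26 above 0 and 7 below (median of -0.05, from -1.03 for *Herpud1* to 0.76 for *Creld2*). Of all genes measured on both arrays, 41.7% lay above 0. The 14 measured members whose window held neither had 9 above 0 and 5 below (median of 0.02, from -1.29 for *Ern1* to 0.66 for *Pdia4*). For NM11 over Colon26 the medians were -0.22 and -0.09, and for LuM1 over NM11 they were 0.03 and -0.23. No test was run on these medians.

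Where several probes of a gene were well above background, as for 15 members, their log2 ratios differed by a median of 0.13 for LuM1 over Colon26, 0.11 for NM11 over Colon26 and 0.13 for LuM1 over NM11. The widest gaps were 0.74 and 0.66 for *Sel1l* in the first and the last comparison, and 0.48 for *Dnajb9* in the other. Of the 29 members Colon26 cells had the highest signal in 13, LuM1 cells in 8 and NM11 cells in 8, against 38.2%, 29.1% and 32.7% of all genes. LuM1 cells had the lowest signal in 14, Colon26 cells in 7 and NM11 cells in 8, against 45.7%, 28.0% and 26.3%. A scaling by 1 factor per array shifts every ratio of 1 comparison by the same amount. Relative to the median of all genes, *Ern1* stood at -1.15, *Manf* at -0.99, *Herpud1* at -0.90, *Canx* at 0.88 and *Creld2* at 0.89 in LuM1 over Colon26, *Ssr1* at 1.01 in NM11 over Colon26, and *Eif2ak3* at 1.03 in LuM1 over NM11.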

How the data were processed

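RNA of 3 cell lines was labelled with Cy3 and hybridized to Agilent mouse arrays, 1 array per line. The authors deposited the intensity of each spot from Agilent Feature Extraction 11.5.1.1, background-subtracted and not scaled between arrays, and flags (scored 0 or 1) for outliers, saturation and signal above background. The series table deposited by the authors holds the same intensities multiplied by a constant on each array, which was 0.654 in Colon26, 0.829 in LuM1 and 0.706 in NM11 cells, and served as an alternative.

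Control spots and outlier spots (137, 74 and 99) were left out of the probe signals, and spots of a repeated probe were averaged. The 75th percentile over all spots but the controls, outliers included (581.0, 625.0 and 552.0 before scaling), was set equal on the arrays. A probe not well above background entered as a bound, its own signal or, where higher, the lowest signal well above background (26.4, 20.1 and 19.6 for Colon26, LuM1 and NM11 cells). Probes were named through RefSeq accessions of GRCm38.p6, which named 32989 of 56605 probes, and a gene was read by its brightest probe (mean log2 signal over the arrays). The array was designed on an older assembly, so coordinates are given for promoters alone. The log2 ratios were checked on simulated data. Precision rests on 1 array per line and a scanner error of 10.0% plus an additive 5.76, 4.78 or 3.97.

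The genes named are all 30 members, at most 4 genes of each of the 6 wider lists with the largest absolute ratio among genes measured on all arrays, *Atf4*, *Ddit3*, *Ppp1r15a*, *Trib3*, *Atf6b*, *Mbtps1*, *Mbtps2* and *Hprt*. The other genes of UPR signalling that were 2-fold apart in LuM1 over Colon26 are named beyond this rule, and 1 gene that the rule takes is not reported here. The members and lists were chosen with earlier results of these data known. All 216 listed genes matched the gene table. Alternatives were no scaling, scaling to the median, to *Hprt* or to E1A spike-in controls (8 probes), quantile normalization, normexp with an offset of 50, the submitters' values, a looser filter on dim probes or none, averaging the probes of a gene, and a 1.5-fold threshold. Python 3.11.15 with numpy 2.4.6, pandas 2.3.3 and matplotlib 3.10.9, and R 4.3.3 with limma 3.58.1 were used.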

Additional observations from a re-analysis of the deposited data

Results flagged for a closer look

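*Eif2ak3* differed from Colon26 cells in opposite directions in the sublines, with a log2 ratio over Colon26 of 0.63 in LuM1 and -0.29 in NM11 cells. Each lay beyond its scanner error of 0.21, and each kept its sign under all 11 settings that gave a ratio (0.51 to 1.08 in LuM1 and -0.78 to -0.22 in NM11 cells). Both ratios use the same Colon26 array and a single probe, and the difference was not tested.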

How the results depend on the processing

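The median log2 ratio of the members for LuM1 over Colon26 (-0.05) moved beyond the scanner error with the submitters' processed values alone, to 0.39, where the median of all genes moved by 0.45. For LuM1 over NM11 (-0.19) it became 0.07 under quantile normalization, 0.12 with the E1A controls, 0.40 with *Hprt* and 0.23 with the submitters' values, where the median of all genes moved by 0.07, 0.30, 0.59 and 0.41. For NM11 over Colon26 (-0.11) it became -0.60 with *Hprt*, where that of all genes moved by -0.49. The count of members 2-fold apart in LuM1 over Colon26 (3) was 10 at 1.5-fold and 1 with the E1A controls (*Ern1*). It was 3 under quantile normalization with 2 higher (*Canx* and *Creld2*) and 1 lower (*Ern1*), 2 with *Hprt* or without scaling (*Ern1* and *Manf*), and 4 with the submitters' values, all higher (*Canx*, *Creld2*, *Eif2ak3* and *Pdia4*). In LuM1 over NM11 the count (0) was 7 at 1.5-fold, 1 without scaling (*Eif2ak3*), 3 with the E1A controls or the submitters' values and 4 with *Hprt*, all higher. In NM11 over Colon26 the count (0) was 4 at 1.5-fold, 1 with the mean over probes (*Canx*), 1 with the median scaling or the submitters' values (*Ssr1*) and 3 with *Hprt*, all lower (*Edem1*, *Herpud1* and *Sdf2l1*). Except at 1.5-fold, shares of all genes are not given for these alternatives, and the counts describe the members alone. Of 29 members, 16 kept their sign in LuM1 over Colon26 under every setting, 20 in NM11 over Colon26 and 15 in LuM1 over NM11. The share of all genes that kept their sign is not given, so these counts do not set the members apart from other genes. Of 1770 values of single genes under alternatives, 1404 moved by less than their scanner error and 366 by more. Without scaling the median of all genes moved by 0.11, -0.08 and 0.18 in the order LuM1 over Colon26, NM11 over Colon26 and LuM1 over NM11. No paired analysis was possible because each line has 1 array. Signal over background limits *Derl3*, and the small signals of *Hyou1* carry a larger relative error.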
